A study of Populus tremula x Populus alba with 3 samples.

Results

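In apical buds of poplar with a knocked-down DNA demethylase, 53 genes were listed for a methylation gain in the promoter and for none in the transcribed region, of 577 listed genes in all. The set was chosen by the methylation calls: a gene was taken when it stood in any of the 3 promoter tables (CG, CHG or CHH context) and in no transcribed region table. A further 30 genes were listed for both gene parts and 494 for the transcribed region alone. Every listed gene had passed the authors' thresholds for methylation and for expression, so membership, and the gains themselves, were fixed by the measured values and are described here with no test.

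The plants were the hybrid Populus tremula x Populus alba, INRA clone 717-1B4, a genotype widely used for transformation. KD5 and KD2 are RNA interference lines against PtaDML10, a gene of the DEMETER-like family, and WT is the untransformed clone. All 3 genotypes passed through 4 weeks of 16 h light at 21 °C, then 12 weeks of 8 h light at 19 °C, then 4 weeks at 4 °C in short days. Each genotype is 1 whole genome bisulfite library from a pool of 15 apical buds of 15 plants, collected before bud break could be seen. Each knockdown line is a separate transgenic line, the pool hides the spread between plants, and no methylation difference has a replicate check. Expression was deposited as a comparison with p-values. Its samples and replicates, and how the lines were combined in it, are not given by the labels used here. In pooled buds a change in the mix of cells and a change within cells cannot be told apart for methylation. Expression carries the same limit wherever whole buds or pools were used. Sequencing depth and coverage are unknown, and no value of a single library was used. Of 8 shoot apex genes looked up, STM and KNAT6 (meristem homeobox genes) and CUC3 (a boundary gene) were listed, all for the transcribed region alone; STM had a logCPM of 5.92 in the authors' deposited tables. The other 5 looked up, KNAT1, KNAT2, CUC2, WUS and CLV1, and PtaDML10 itself are not among the genes analysed here.

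Plants methylate cytosine in 3 sequence contexts, CG, CHG and CHH, where H is any base but G. CG methylation is copied onto the new strand at replication by a maintenance methyltransferase, CHG methylation is kept by a chromomethylase that reads histone marks, and much CHH methylation is laid down anew by small RNAs. DEMETER-like glycosylases cut 5-methylcytosine out of DNA and so act against all of these. In Arabidopsis, promoter methylation often goes with a silent gene, while CG methylation inside the gene is common in genes that are steadily expressed.

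The deposited methylation differences were all negative under titles that call the regions hypermethylated, so their sign was turned and they are given as gains, in percentage points, of each line over WT. Expression is the authors' logFC, 1 value per gene for the knockdown comparison, read as log2. The headers do not state its direction, so genes are described by the sign of their logFC and not as induced or repressed. Coordinates are those of the deposited tables, whose gene models carry a Phytozome tag and no build name. The level is logCPM, a log of CPM not scaled to gene length, where CPM is the count relative to library size.

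The 53 genes made 60 promoter listings, and CG was the commonest context. In all 30 were listed in CG, 17 in CHG and 13 in CHH. Most genes, 46, stood in 1 context, and 7 stood in 2. None was listed in all 3 contexts. Of the 30 genes listed for both gene parts, 8 had 2 promoter contexts and 1 had all 3. The 7 genes with 2 contexts included TIP1;3 (Potri.009G027200) and Potri.010G062600 (CHG and CHH), and BZIP61 (Potri.001G374200), Potri.005G221800 and Potri.002G261600 (CG and CHG). The others were a RING/U-box gene and a gene annotated as heavy metal transport/detoxification (CG and CHH).

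Gains in CG ran higher in KD5 than in KD2. Over the 30 CG promoters, KD5 gains ran between 16.4 and 100 points with a median of 30.9, and KD2 gains between 15.3 and 92 points with a median of 19.7. The KD5 gain was the larger one at 26 of 30 promoters (86.7%), where the share over all CG promoters listed, these 30 included, was 77.6%. Among genes listed for both gene parts it was the larger at 12 of 19 (63.2%). Because these gains chose the promoters, and each line is 1 library set against the same WT library, each share compares those libraries only. At NF-YB13 (Potri.015G052800), annotated as a subunit of nuclear factor Y, both gains were 16.4 points.

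In CHG the KD5 gain was the larger at 12 of 17 promoters (70.6%), with 60.0% over all CHG promoters listed. Genes listed for both gene parts had 6 of 13 (46.2%). The median gain in CHG was 25.0 points in KD5 and 19.0 points in KD2. In CHH the KD5 gain was the larger at 5 of 13 promoters (38.5%), with 52.4% over all CHH promoters listed. Counting only the 7 CHH promoters whose gains differed by at least 5 points, it was the larger at 4 (57.1%), so which line was more often higher in CHH turned with this limit. CHH medians were 18.0 points in KD5 and 20 points in KD2.

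**Figure D1:**
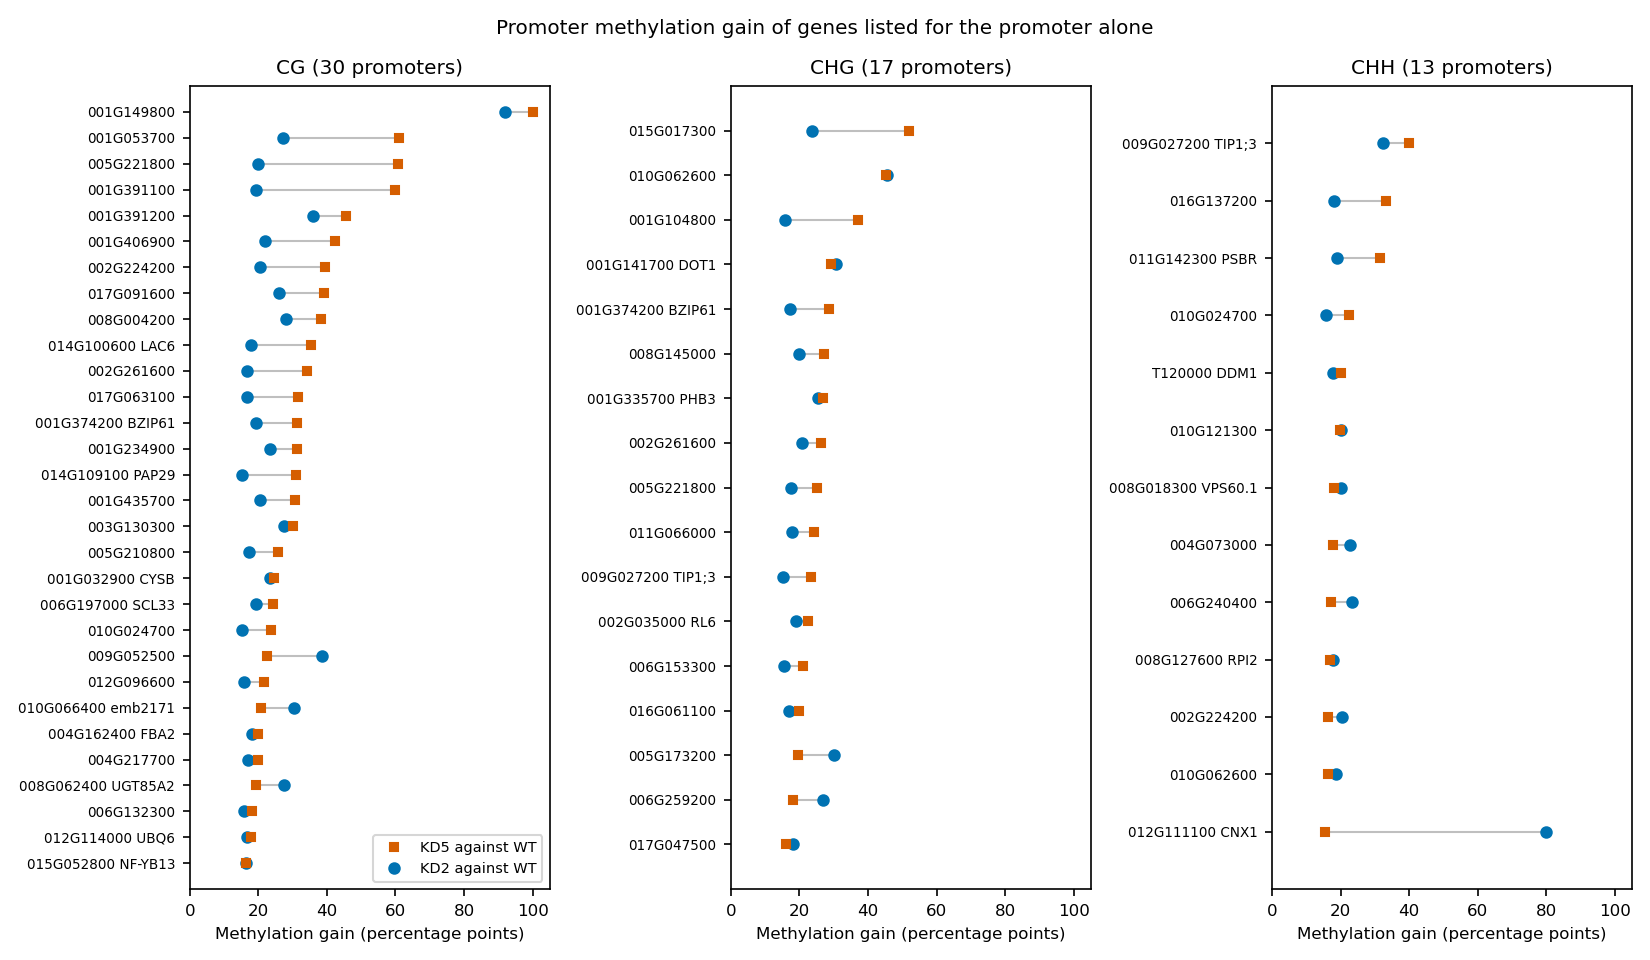
Methylation gain over WT, in percentage points, at each promoter listing (60 in all, 1 row each), with KD5 as squares and KD2 as circles joined by a line, in panels for CG, CHG and CHH. Most gains lie between 15 and 40 points in both lines, and Potri.001G149800 (CG), at 100 points in KD5 and 92 points in KD2, and CNX1 (CHH), at 15.4 points in KD5 and 80 points in KD2, stand far to the right.

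Both gains reached 30 points at 4 of the 60 listings. The same count was not made over all promoter listings, so it is not read as a trait of these genes. The first was Potri.001G149800 (window on chromosome 1, 12336746 to 12338745, minus strand), a gene without a description, with CG gains of 100 points in KD5 and 92 points in KD2 in the authors' deposited tables. A difference of 100 points can only be read when the region stood at 0% in WT and was fully methylated in KD5, and the KD2 value allows at most 8% in WT. The authors' deposited tables gave it a logFC of -0.69. The next was Potri.001G391200, a mannose-binding lectin gene, at 45.4 points in KD5 and 36.1 points in KD2 in the authors' deposited tables. Potri.010G062600, without a description, had CHG gains of 45.2 points in KD5 and 45.7 points in KD2 in the authors' deposited tables, but CHH gains of 16.2 and 18.7 points in the same lines. Its window lies on chromosome 1 while its identifier names chromosome 10, so whether these gains lie next to the gene was not tested. TIP1;3 (window on chromosome 9, 3823997 to 3825996, plus strand), a water channel of the vacuolar membrane, completed the 4 with CHH gains of 39.9 points in KD5 and 32.4 points in KD2 in the authors' deposited tables. TIP1;3 is the one of these 4 with a positive logFC.

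At 7 of the 60 listings the KD5 gain was at least 2 times that of KD2, and at 1 listing the reverse held. These counts too were not made over all promoter listings. Of these 7, 5 were in CG and 2 in CHG. The CG genes included PAP29, at 31.1 points in KD5 and 15.3 points in KD2 in the authors' deposited tables, and Potri.002G261600. Potri.001G391100, a zinc-binding dehydrogenase gene, had gains of 60.0 points in KD5 and 19.4 points in KD2 in the authors' deposited tables. Potri.005G221800, whose window also lies off the chromosome of its identifier, had 60.9 points in KD5 and 19.96 points in KD2 in CG. In CHG it had 25.0 and 17.5 points, in the authors' deposited tables. Potri.001G053700 had 61.0 points in KD5 and 27.1 points in KD2 in the authors' deposited tables. The CHG pair were a Got1/Sft2-like gene of Golgi traffic (Potri.015G017300), with 52.0 points in KD5 and 23.8 points in KD2 in the authors' deposited tables, and a ribonuclease H-like gene (Potri.001G104800), with 37.0 and 15.8 points. The reverse case was calnexin 1 (CNX1, Potri.012G111100, window on chromosome 12, 13294953 to 13296952), a chaperone of the endoplasmic reticulum, with CHH gains of 15.4 points in KD5 and 80 points in KD2 in the authors' deposited tables. Its KD2 value allows at most 20% CHH methylation in WT in the region behind it. These listings were picked for their gains, and near the other end 7 listings had both gains below 20 points. That count, too, was not made over all promoter listings. The smallest gain in any promoter table was 15 points, and no promoter under that value was analysed here.

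Some of the genes in 2 contexts gained alike in both, and others did not. TIP1;3 gained 39.9 points in KD5 and 32.4 points in KD2 in CHH, but 23.3 and 15.1 points in CHG, in the authors' deposited tables. The bZIP transcription factor gene BZIP61 gained 28.7 points in KD5 and 17.4 points in KD2 in CHG in the authors' deposited tables, close to its CG gains of 31.3 and 19.3 points. The RING/U-box gene Potri.002G224200, of the family of ubiquitin ligases, gained 39.4 points in KD5 and 20.5 points in KD2 in CG, and 16.2 and 20.3 points in CHH, in the authors' deposited tables, so KD5 was the higher line in one context and KD2 in the other. Potri.002G261600 gained 34.1 points in KD5 and 16.7 points in KD2 in CG, and 26.4 and 20.9 points in CHG, in the authors' deposited tables. Potri.010G024700, annotated as heavy metal transport/detoxification, had near equal gains in its contexts. They were 23.8 points in KD5 and 15.3 points in KD2 in CG and 22.6 and 15.8 points in CHH, as the authors' deposited tables list them.

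A negative logFC was the more frequent sign. Of the 53 genes, 40 were negative and 13 positive (75.5% negative, exact Clopper-Pearson 95% interval for counting error 61.7 to 86.2), against 51.0% negative over all 577 listed genes. Among the 30 genes listed for both gene parts 15 were negative (50.0%, 31.3 to 68.7), and among the 494 listed for the transcribed region alone 239 were (48.4%, 43.9 to 52.9). The median logFC was -0.77 over the 53 genes. It was 0.08 over the genes listed for both gene parts and 0.77 over those listed for the transcribed region alone. Over all listed genes it was -0.63, at the edge of the empty band around 0, since the signs were near evenly split. The 0.77 is likewise at an edge of that band, and the 0.08 falls inside it, where no gene lies. These medians follow the split of signs and do not measure a shift in size. The median absolute logFC was 1.09 over the 53 genes and 0.99 over all listed genes. An absolute logFC of at least 1 was reached by 30 of the 53 (56.6%), with 47.8% over all listed genes, and an expression FDR below 0.01 by 24 (45.3%), with 42.6% over all. The positive members had the wider span, with a median of 1.42 and a highest value of 6.39, while the negative ones had a median size of 0.85 and a lowest value of -3.11. Over all listed genes the median was 1.10 for positive genes and 0.86 in size for negative ones. The members at 6.39 and -3.11 were near the lowest levels, with a logCPM of 0.67 and 0.33 in the authors' deposited tables. The negative share was 80.0% in CG (24 of 30, 61.43 to 92.29) and 70.6% in CHG (12 of 17, 44.04 to 89.69). In CHH it was 76.9% (10 of 13, 46.19 to 94.96). Genes of 2 contexts were counted in each. These intervals overlap, and the share was not counted over all genes listed in each context, so the contexts are not ranked by it.

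**Figure D2:**
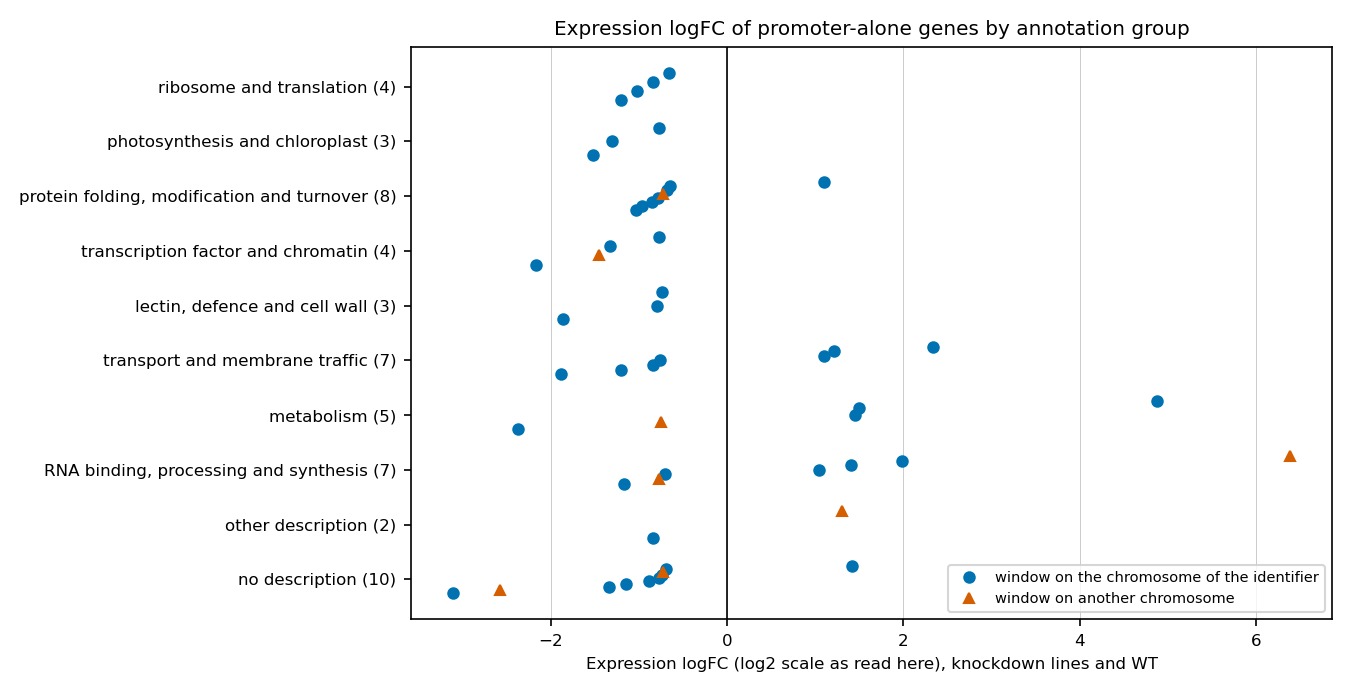
Expression logFC, as deposited, of each of the 53 genes (1 point each) by annotation group, with the number of genes in parentheses; circles mark genes whose window lies on the chromosome named in their identifier and triangles the 8 whose window lies elsewhere. All genes of the translation, photosynthesis, transcription factor and cell wall groups lie left of 0, and the largest positive value, 6.39, is a triangle.

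The groups below were made from words of the deposited annotation with the 53 genes in view, so they order the genes and carry no evidence of a theme. The 4 ribosome and translation genes were all negative and highly expressed. They were a translation protein SH3-like gene (Potri.016G061100), at -1.20 in the authors' deposited tables, a ribosomal L14p/L23e gene (emb2171, Potri.010G066400, -1.02), a ribosomal L36e gene (Potri.011G066000, -0.84) and a ribosomal L22p/L17e gene (Potri.012G096600, -0.66). Their logCPM ran between 6.82 and 10.01 in the authors' deposited tables, and the 10.01 of Potri.010G066400 was the highest of all 577 genes. Their gains stayed below 25 points in KD5. Among the other listed genes matched by the same words 35 of 39 were negative, so a negative sign was usual for ribosomal genes with either kind of methylation. Potri.010G066400 was one of the 3 CG promoters with the larger gain in KD2, at 20.8 points in KD5 and 30.4 points in KD2 in the authors' deposited tables.

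The 3 photosynthesis genes were negative as well. The photosystem II 5 kD protein gene (Potri.009G052500), a small subunit of the water-splitting photosystem, stood at -1.52 in the authors' deposited tables, with gains of 22.6 points in KD5 and 38.5 points in KD2. FBA2 (Potri.004G162400), a plastid aldolase of the carbon fixation cycle, had -1.30 with an FDR of 1.61e-07 in the authors' deposited tables, the lowest FDR of the 53. Its CG gains were small, 20 points in KD5 and 18.2 points in KD2 in the authors' deposited tables, at 18338032 to 18340031 on chromosome 4. PSBR (Potri.011G142300), an extrinsic subunit of photosystem II, had -0.77 and gains of 31.4 points in KD5 and 18.9 points in KD2 in the authors' deposited tables. Of the other listed genes matched by these words 6 of 7 were negative.

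Of the 8 genes of protein folding, modification and turnover, 7 were negative, against 11 of 26 other listed genes matched by the same words. Ubiquitin 6 (UBQ6, Potri.012G114000), a ubiquitin gene fused to a ribosomal protein, had -1.04 in the authors' deposited tables. The RING/U-box genes Potri.002G224200 and Potri.004G217700 had -0.96 and -0.85 in the authors' deposited tables, and cystatin B (CYSB), an inhibitor of cysteine proteases, -0.78. A peptidase M28 gene (Potri.006G153300, -0.73), the mitochondrial prohibitin PHB3 (Potri.001G335700, -0.68) and CNX1 (-0.65) followed in the authors' deposited tables. PHB3 gained 26.9 points in KD5 and 25.3 points in KD2 in CHG, and UBQ6 gained 18.0 and 16.8 points in CG, in the authors' deposited tables. The one positive gene held a RING/FYVE/PHD zinc finger (Potri.005G173200), at 1.09 in the authors' deposited tables, and its CHG gain was 19.5 points in KD5 and 30 points in KD2.

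All 4 transcription factor and chromatin genes were negative, where 9 of 22 other listed genes matched by these words were. RL6 (Potri.002G035000), a small MYB protein gene of the RAD-like kind, had the lowest value, -2.17, and a logCPM of 1.36 in the authors' deposited tables. DDM1 (Potri.T120000), the remodeller that lets methyltransferases reach nucleosomal DNA, had -1.46, BZIP61 had -1.32 and NF-YB13 -0.77 in the authors' deposited tables. RL6 gained 22.6 points in KD5 and 19.0 points in KD2 in CHG in the authors' deposited tables, at 2248953 to 2250952 on chromosome 2. The identifier of DDM1 names no chromosome, and its window is 544 bases long.

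The 3 genes of the lectin, defence and cell wall group were negative, as were 6 of 13 other listed genes matched by these words. The lectin gene Potri.001G391200 had -1.86 in the authors' deposited tables, LAC6 (Potri.014G100600), a laccase of the family that oxidises lignin precursors, had -0.79, and the glycine-rich gene DOT1 (Potri.001G141700), named for a vein pattern mutant of Arabidopsis, had -0.73. CHG gains at DOT1 were close to each other, at 29.2 points in KD5 and 30.8 points in KD2 in the authors' deposited tables. At LAC6 the CG gains were 35.4 points in KD5 and 18.0 points in KD2 in the authors' deposited tables.

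Transport and membrane traffic genes were of both signs, 4 negative and 3 positive, and 11 of 24 other listed genes matched by these words were negative. TIP1;3 (2.34), the transmembrane 14C gene Potri.016G137200 (1.21) and the Got1/Sft2-like gene (1.10) were positive in the authors' deposited tables. In CHH, the authors' deposited tables gave the transmembrane 14C promoter 33.3 points in KD5 and 18.1 points in KD2. Potri.010G024700 and Potri.004G073000, placed here by the annotation words heavy metal transport/detoxification, had -1.88 and -1.21 in the authors' deposited tables. Whether they transport metals was not tested. A reticulon gene (Potri.008G004200), of the family that shapes the endoplasmic reticulum, had -0.84 and VPS60.1 (Potri.008G018300), a part of the ESCRT machinery of endosomes, -0.76 in the authors' deposited tables. The reticulon promoter gained 38.3 points in KD5 and 28.0 points in KD2 in CG, and the VPS60.1 promoter 18.0 and 20 points in CHH, in the authors' deposited tables.

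Metabolic genes and genes of RNA held most of the strongly positive values. Potri.001G234900, a gene of riboflavin synthesis with a GTP cyclohydrolase II domain, had 4.88 with an FDR of 1.10e-06 in the authors' deposited tables. Its CG gains were 31.3 points in KD5 and 23.5 points in KD2 in the authors' deposited tables. PAP29 (Potri.014G109100), a purple acid phosphatase, had 1.5 and RPI2 (Potri.008G127600), a ribose-5-phosphate isomerase, 1.45 in the authors' deposited tables, while Potri.001G391100 (-2.37) and UGT85A2 (Potri.008G062400, -0.75), a sugar transferase, were negative. The RPI2 promoter gained 16.9 points in KD5 and 17.8 points in KD2 in CHH in the authors' deposited tables. Of these 5 metabolic genes 3 were positive, as were 38 of 62 other listed genes matched by these words. Among 7 genes of RNA binding, processing and synthesis 4 were positive, as were 15 of 35 other listed ones. These were the RNA polymerase family gene Potri.017G063100 (6.39), whose closest Arabidopsis gene is encoded in the chloroplast, a pentatricopeptide repeat gene (Potri.017G091600, 1.99), the ribonuclease H-like gene (1.40) and an RNA recognition motif gene (Potri.006G132300, 1.05), all from the authors' deposited tables. The pentatricopeptide repeat promoter gained 39.0 points in KD5 and 26.1 points in KD2, and that of Potri.006G132300 gained 18.1 and 15.7 points, both in CG, in the authors' deposited tables. The splicing factor SCL33 (Potri.006G197000, -0.71), the RNA recognition motif gene Potri.003G130300 (-0.77) and the L-PSP endoribonuclease family gene Potri.001G435700 (-1.17) were negative in the authors' deposited tables.

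The 10 genes with no description were 9 negative and 1 positive, while 36 of the 78 other listed genes with no description were negative. The lowest were Potri.017G047500 (-3.11) and Potri.005G221800 (-2.57), with a logCPM of 0.33 and 0.40 in the authors' deposited tables, the lowest levels of the 53. Next came Potri.010G121300 (-1.34), Potri.001G053700 (-1.15), Potri.008G145000 (-0.88), Potri.002G261600 (-0.77), Potri.001G406900 (-0.74), Potri.010G062600 (-0.73) and Potri.001G149800 (-0.69) in the authors' deposited tables. Potri.001G406900 gained 42.4 points in KD5 and 21.9 points in KD2 in CG in the authors' deposited tables. Potri.006G259200 was the positive one, at 1.42 in the authors' deposited tables, and 2 genes with other words, an ARM repeat gene (Potri.006G240400, -0.84) and a DUF868 gene (Potri.005G210800, 1.31), complete the 53. The CHH gain at the ARM repeat gene was 17.1 points in KD5 and 23.3 points in KD2, and at Potri.004G073000 it was 17.8 and 22.9 points, in the authors' deposited tables.

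**Figure D3:**
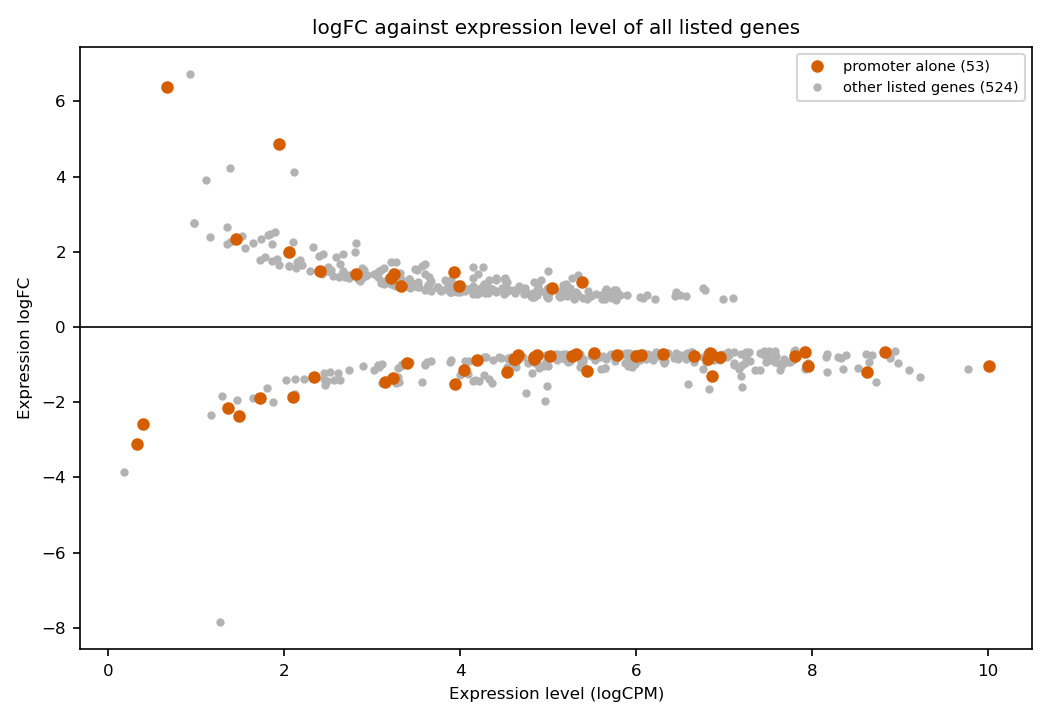
Expression logFC against logCPM for all 577 listed genes, with the 53 genes listed for the promoter alone as large points and the other 524 as small ones. The empty band around a logFC of 0 is set by the authors' expression threshold; it widens toward low logCPM, and beyond a logCPM of 6 all 14 members lie below 0.

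The sign went with the expression level, within the 53 genes as among all listed genes. The median logCPM was 4.95 for the 40 negative members and 3.21 for the 13 positive ones, and 5.76 and 3.96 for negative and positive genes over all listed genes. All 14 members with a logCPM of 6 and above were negative (76.8 to 100), but so were 128 of all 140 listed genes in that range. Between 4 and 6, 15 of 17 members were negative (88.2%, 63.6 to 98.5), against 93 of 209 genes listed for the transcribed region alone (44.5%, 37.6 to 51.5). Between 2 and 4 the counts were 6 of 14 (42.9%, 17.7 to 71.1) and 32 of 144 (22.2%, 15.7 to 29.9), and below 2 they were 5 of 8 (62.5%, 24.5 to 91.5) and 8 of 25 (32.0%, 14.9 to 53.5). The negative share of members was above that of genes listed for the transcribed region alone in each of these ranges. Genes listed for both gene parts were fewer, with 5 of 9 negative between 4 and 6 (55.6%, 21.2 to 86.3). The ranges were set after the data were seen, and no difference between sets was tested.

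**Figure D4:**
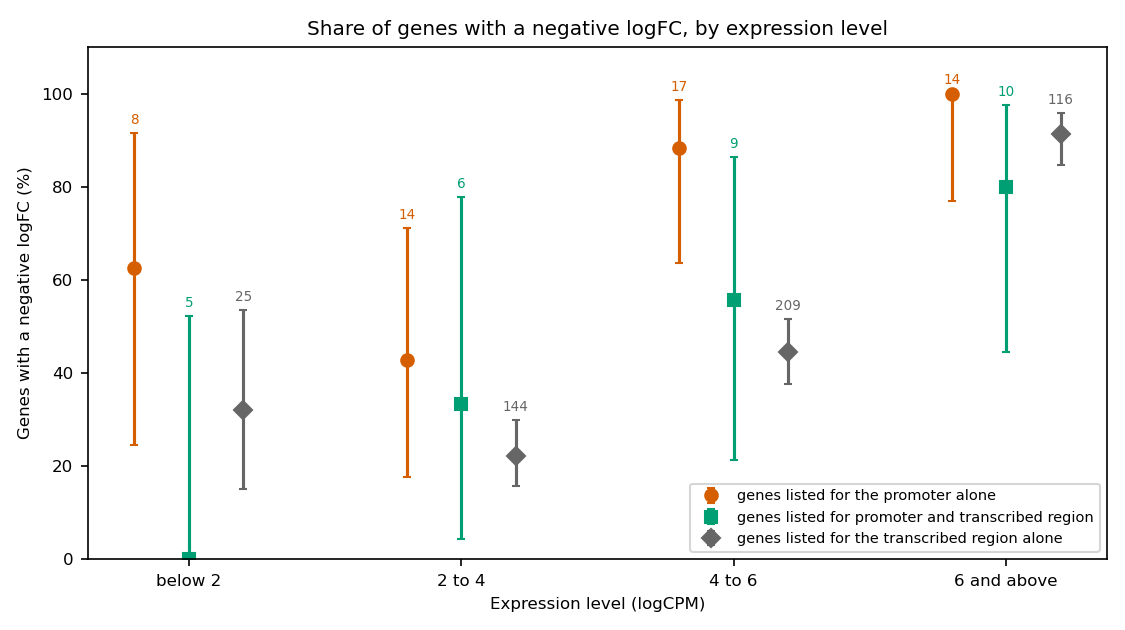
Percentage of genes with a negative logFC in 4 ranges of logCPM, for genes listed for the promoter alone, for both gene parts and for the transcribed region alone; bars are exact 95% intervals and the small numbers count the genes. In the range 4 to 6 the promoter-alone genes stand at 88.2% and the transcribed-region-alone genes at 44.5%, and at 6 and above both stand over 90%.

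The promoter window was the stretch of 2000 bases next to the gene, except where it was shorter. This could be read from the 30 genes listed for both gene parts, whose gene coordinates are given: all 28 full windows ended at the base before the gene, on the side of its start, and a start coordinate above the end coordinate went with the minus strand. Neither of the 2 shorter windows touched its gene. Among the 53, 44 windows were full and 9 were shorter. All 44 full windows, and the 1595 bases listed for DOT1, lay on the chromosome named in the gene's identifier. Each of these 45 also lay in number order with the transcribed-region genes whose numbers flank it on that chromosome. Potri.008G004200 and Potri.002G261600 had such a gene on a single side only.

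The other 8 windows did not lie where the identifier puts the gene. They were 299 to 1030 bases long, and 5 of them were on chromosome 1. They belong to Potri.017G063100, UGT85A2, Potri.003G130300, Potri.006G153300, Potri.010G062600, Potri.005G210800, Potri.005G221800 and DDM1, the last of which has an identifier without a chromosome. For DDM1 the window is at 15595460 to 15596003 on chromosome 19, on the coordinates of the deposited tables, with CHH gains of 20 points in KD5 and 17.7 points in KD2 in the authors' deposited tables. For Potri.005G221800 it is at 2647844 to 2648846 on chromosome 2. Whether the gains listed for these 8 genes describe DNA next to them was not tested. Without them 34 of 45 genes were negative (75.6%). Both the gene with the highest logFC of the 53 and the one with the second lowest are among these 8.

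In 3 cases the window reached into a neighbouring gene that was itself listed for methylation of its transcribed region, each in the same context. PSBR (Potri.011G142300) lies 322 bases behind a second PSBR copy, Potri.011G142200, on the same strand of chromosome 11. That copy fills 83.9% of the window, and the parts listed beside it, coding sequence and 3' UTR in CHH, lie wholly within the window at 16351771 to 16353770. Both copies were negative, at -0.77 for Potri.011G142300 and -1.96 for Potri.011G142200 in the authors' deposited tables.

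In the other pairs the signs were opposite. CYSB (Potri.001G032900) follows CYP734A1 (Potri.001G032800), a cytochrome P450 that inactivates brassinosteroids, by 1516 bases on chromosome 1. The last 484 bases of CYP734A1, all 3' UTR, lie in the CYSB window, and CYP734A1 was listed in CG with coding sequence and this 3' UTR. The logFC was -0.78 for CYSB and 0.93 for CYP734A1 in the authors' deposited tables, with CG gains at CYSB of 24.5 points in KD5 and 23.3 points in KD2. The ribosomal gene Potri.012G096600 and CHC1 (Potri.012G096700), a SWIB domain gene of the chromatin remodelling type, start 90 bases apart on opposite strands of chromosome 12. CHC1 fills 95.5% of the window. The logFC was -0.66 for Potri.012G096600 and 1.01 for CHC1 in the authors' deposited tables. The tables used here give no coordinates of the methylated regions, so it was not tested whether each pair shares 1 region. The other 50 windows include the 8 that lie off the identifier's chromosome. All 50 lay at least 16330 bases from any transcribed-region gene whose identifier names the chromosome of the window. The median distance was 239288 bases. Listed genes whose identifiers name no chromosome were left out of this search.

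**Figure D5:**
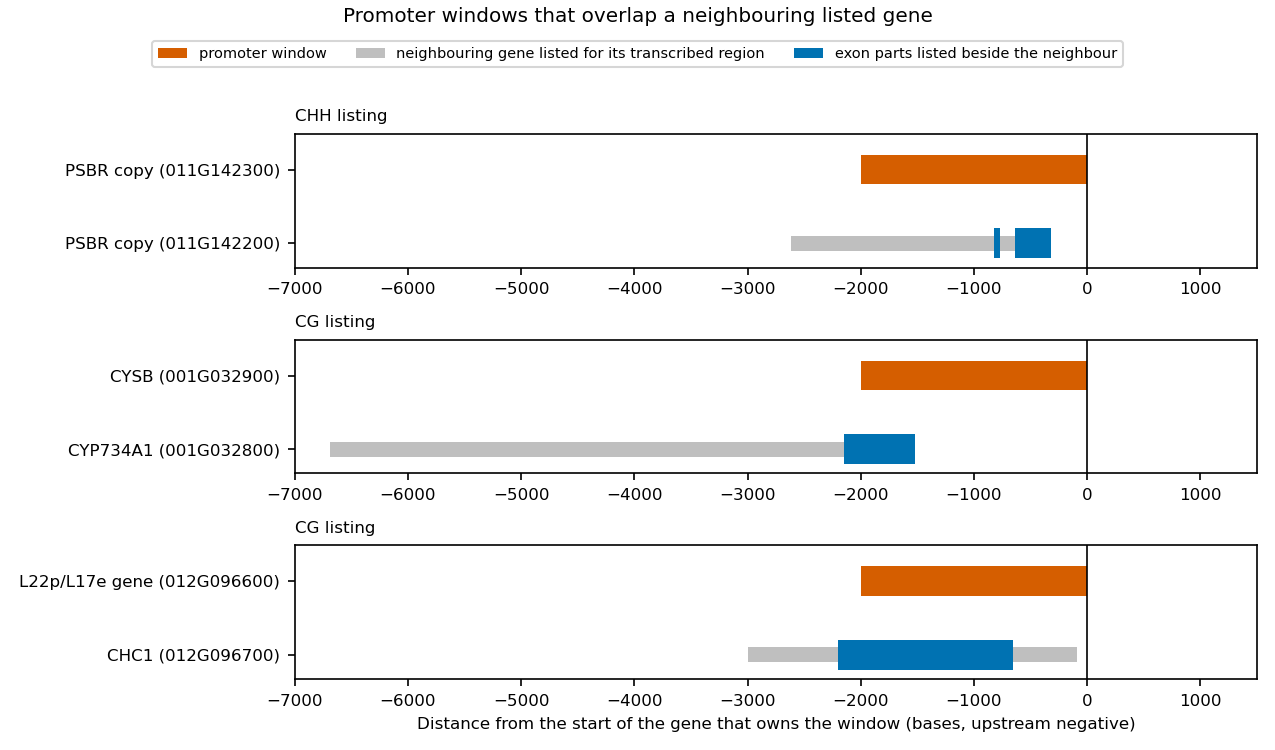
The 3 windows that overlap a listed neighbour, drawn to scale against distance in bases from the start of the gene that owns the window (upstream negative); the upper bar is the window, the grey bar the neighbour and the blue blocks the coding or UTR parts listed beside the neighbour. The PSBR copy and CHC1 fill most of the window, and only the end of CYP734A1 reaches into that of CYSB.

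Neighbours and related genes within the list were few. Potri.001G391100 and Potri.001G391200 carry consecutive numbers on chromosome 1, their windows lie 18916 bases apart, both are on the minus strand, and both were negative (-2.37 and -1.86 in the authors' deposited tables). Identifiers on chromosome 1 made up 12 of the 53 (22.6%), against 14.4% of all listed genes, a difference that was not tested. In 3 cases a second listed gene had the same closest Arabidopsis gene, each time listed for the transcribed region alone and with the same sign of logFC. One is the PSBR pair. The RNA recognition motif genes Potri.003G130300 and Potri.001G248100 had -0.77 and -0.84, and Potri.006G132300 and Potri.016G084700 had 1.05 and 0.98, in the authors' deposited tables.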

How the data were processed

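Per the labels' protocols, genomic DNA of apical buds was bisulfite sequenced on an Illumina instrument; Bismark and methylKit are named in the submitters' processing notes. The sources used here name no version, filter, coverage minimum or genome build. The values are 6 tables of the authors' own comparisons, with no value per library, so depth is unknown.

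The methylation difference per promoter, a signed score in percentage points deposited by the authors, was sign-turned into a gain. The authors deposited logFC and logCPM, read here as log2; log base, direction and program are not stated. Expression p-values and FDR were deposited too, per the file headers, and every listed FDR was below 0.05.

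Genes were joined by identifier across tables, and each gene was counted once. Shares have exact Clopper-Pearson 95% intervals, which cover counting error only. Python 3.11.15, pandas 2.3.3 and SciPy 1.17.1 were used, and the interval functions were tested on simulated data. Members, lists and ranges were chosen with earlier results of these data known. The rule for named genes took the 12 lowest and 10 highest logFC, the 6 largest gains per context, genes of 2 contexts, neighbours, windows off the identifier's chromosome and group members, which together cover all 53. Annotation groups were set by words, with the first match kept. Motifs and sequences of promoters were not used here, since no reference sequence was at hand.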

Additional observations from a re-analysis of the deposited data

How the results depend on the processing

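No paired analysis was possible because each genotype is 1 bisulfite library and the values, of expression too, are comparisons already made by the authors. For the same reason no library could be left out. The number of promoter-alone genes followed the thresholds: 14 of 53 were left when both gains had to reach 1.5 times the smallest in the table, 24 with an FDR below 0.01 and 30 when the absolute logFC had to reach 1. At an absolute logFC of 1 or more the negative share was 56.7%, below the interval of the 75.5% given above, while over all listed genes it was 34.4% with that limit. Under the other alternatives tried for it the negative share ran between 70.5% and 76.0%. One of these was an FDR below 0.01, where 18 of 24 members were negative. Over all listed genes 146 of 246 were negative with that limit (59.3%), against 51.0% without it. The members thus stood less far above all listed genes there than without the limit. With the mean in place of the median, the gain in KD2 was 24.0 points in CG and 25.1 points in CHH, against medians of 19.7 and 20 points; each context holds 1 promoter with a KD2 gain of 80 points or more. The counts without windows on another chromosome (45 genes) and without windows overlapping a listed gene (50 genes, 74.0% negative) were chosen after seeing the data. In CHH the KD5 gain was the larger one at 38.5% of promoters, and at 57.1% of those whose gains differed by at least 5 points. The remaining alternatives kept medians within their order-statistic intervals and shares within their exact intervals, both over promoters of 1 library per line. Unknown coverage limits every single gain, since a difference of 100 or 80 points can rest on few reads.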

Other observations

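Short windows on another chromosome were not confined to the 53 genes. Over all 83 promoter genes, 11 windows were shorter than 2000 bases, and 10 of these lay off the chromosome of the identifier (counting DDM1, whose identifier names none), while all 72 full windows lay on it. In 2 of these 10 cases the gene itself is located in the deposited tables. Potri.017G033400 lies on chromosome 17 and its window of 1097 bases on chromosome 7, and Potri.003G068500 lies on chromosome 3 and its window of 821 bases on chromosome 1.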
